A study of Mus musculus with 12 samples.

Results

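The genes described here are 38 genes of the T cell receptor complex and its signaling, followed by RNA sequencing across 12 libraries of 8946, a mouse line of T cell leukemia. They were taken by name from the 23284 gene symbols in the data, by their known roles and not by a measured value, and all 38 were found. They comprise 4 receptor chains, 3 coreceptor genes, 9 costimulatory, adhesion and activation surface proteins, 6 kinases, 10 adapters, exchange factors and a lipase, 3 transcription factors, and 3 phosphatases or suppressors. Every library came from cells that received a pair of retroviral vectors and were then sorted for GFP and NGFR, so the controls carry empty vectors and the same sort. In the combined group (titled Notch1+Zmiz1, cell line L1601P/Zmiz1) the pair was the Notch1 mutant L1601P with GFP and Zmiz1 with NGFR. By title, the Zmiz1-titled group received Zmiz1 with an empty GFP vector and the Notch1-titled group received L1601P with an empty NGFR vector. The control group (cell line MigR1/NGFR) received both vectors empty, and each of the 4 groups has 3 libraries. The comparisons ask how activated Notch1 and the PIAS-like coactivator Zmiz1, alone and together, change these genes. All libraries come from 1 cell line, and nothing says that the 3 libraries of a group came from separate transductions, so p-values measure the spread between libraries, which may be technical.

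The T cell receptor binds peptide on MHC molecules through its variable chains and signals through the CD3 chains and the zeta chain, which carry phosphorylation motifs. Lck, brought in by the coreceptors CD4 and CD8, phosphorylates these motifs, Zap70 docks on them, and Zap70 in turn phosphorylates the scaffolds Lat and Lcp2 (SLP-76). From there the signal spreads through phospholipase C gamma to calcium and NFAT, to Ras through Rasgrp1, and to NF-kB through protein kinase C theta and Malt1. Activated Notch1 and signals from the pre-T cell receptor both act in developing thymocytes, from which such leukemias arise. Some T cell leukemias keep CD4 and CD8 together on the surface, as thymocytes do.

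The labels of the single-vector groups contradict each other. Libraries titled Zmiz1 carry the cell line name L1601P/NGFR, and libraries titled Notch1 carry MigR1/Zmiz1. Group names here follow the titles, which go with the measured vector genes: Zmiz1 averaged 49.3 FPKM in combined and 70.8 FPKM in Zmiz1-titled libraries, against 0.212 FPKM in Notch1-titled and 0.176 FPKM in control libraries. Notch1 averaged 35.6 FPKM in combined, 2.10 FPKM in Zmiz1-titled, 32.1 FPKM in Notch1-titled and 1.89 FPKM in control libraries. Ngfr, a marker of the sort, averaged 5.64 FPKM in combined, 7.43 FPKM in Zmiz1-titled, 72.9 FPKM in Notch1-titled and 85.2 FPKM in control libraries. It was thus lower in both groups that received Zmiz1, and the cause was not tested. FPKM counts fragments for each kilobase of a transcript and each unit of mapped fragments. The files hold FPKM without read totals, so depth is known only in relative terms: against the control library of the same replicate set, Zmiz1-titled replicate 2 was the shallowest at 0.768. The spacing of low FPKM values splits the libraries into replicate 1 of all groups and replicates 2 and 3 of all groups. Of the 978 to 1226 low genes above 0 in both libraries of a pair and compared in it, 11.7% to 29.5% shared the most frequent ratio where the pair lay within a set, against 2.70% to 3.84% across the sets. Notch1-titled replicate 3 stood apart in a second way: its deviations from the gene means fell with exonic length (Spearman correlation of -0.56 across 7427 genes), against -0.22 to 0.26 in the other 11 libraries, where Zmiz1-titled replicate 2 was the highest. Member calls lost when either of these libraries was left out are named below. Genes that are not members are given with all libraries only. All 8 T lineage markers were expressed, but all of them are also members, so they are no separate check. The B lineage marker Ms4a1 and the NK markers Ncr1, Nkg7 and Klrk1 were at 0 in all libraries, and the summed B lineage, NK and fibroblast markers stayed at or under 1.18 FPKM in every library. Erythroid markers summed to 1.79 to 4.79 FPKM, and Epor alone of them reached a mean of 1 FPKM. The myeloid list summed to 60.9 to 63.1 FPKM in combined libraries, 93.5 to 101 FPKM in Zmiz1-titled libraries, 53.1 to 60.2 FPKM in Notch1-titled libraries and 99.2 to 103 FPKM in controls, almost all of it from Itgam, while Csf1r, Lyz2 and Cd14 were at or near 0. The part of this Itgam difference in the results was not tested. In bulk RNA, fewer cells of a type and less RNA per cell cannot be told apart.

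Most of these genes were highly expressed in every library. Averaged over the 12 libraries, 22 of the 38 reached 100 FPKM, and 33 reached 10 FPKM. The median of the 37 members tested was 126 FPKM, against 16.3 FPKM for all 10152 genes tested, those with a mean of at least 1 FPKM. The highest were Thy1, the glycoprotein by which thymocytes are recognised, with a mean of 1363 FPKM, and Cd8b1, the CD8 beta chain, with 1006 FPKM. Lck, the kinase that starts receptor signaling, averaged 744 FPKM and Zap70, which follows it, 146 FPKM. At the low end of the members tested were the NFAT gene Nfatc2 at 2.70 FPKM, Nfatc1 and Malt1. Cd69, a surface protein that receptor signals induce within hours, had a mean of 0.127 FPKM, between 0 and 0.297 in the 12 libraries, and is the 1 member under the limit of 1 FPKM. Cd4 lay between 372 and 513 FPKM and Cd8a between 610.4 and 767 FPKM in all libraries, so RNA of both coreceptors was present together in each group.

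**Figure D1:**
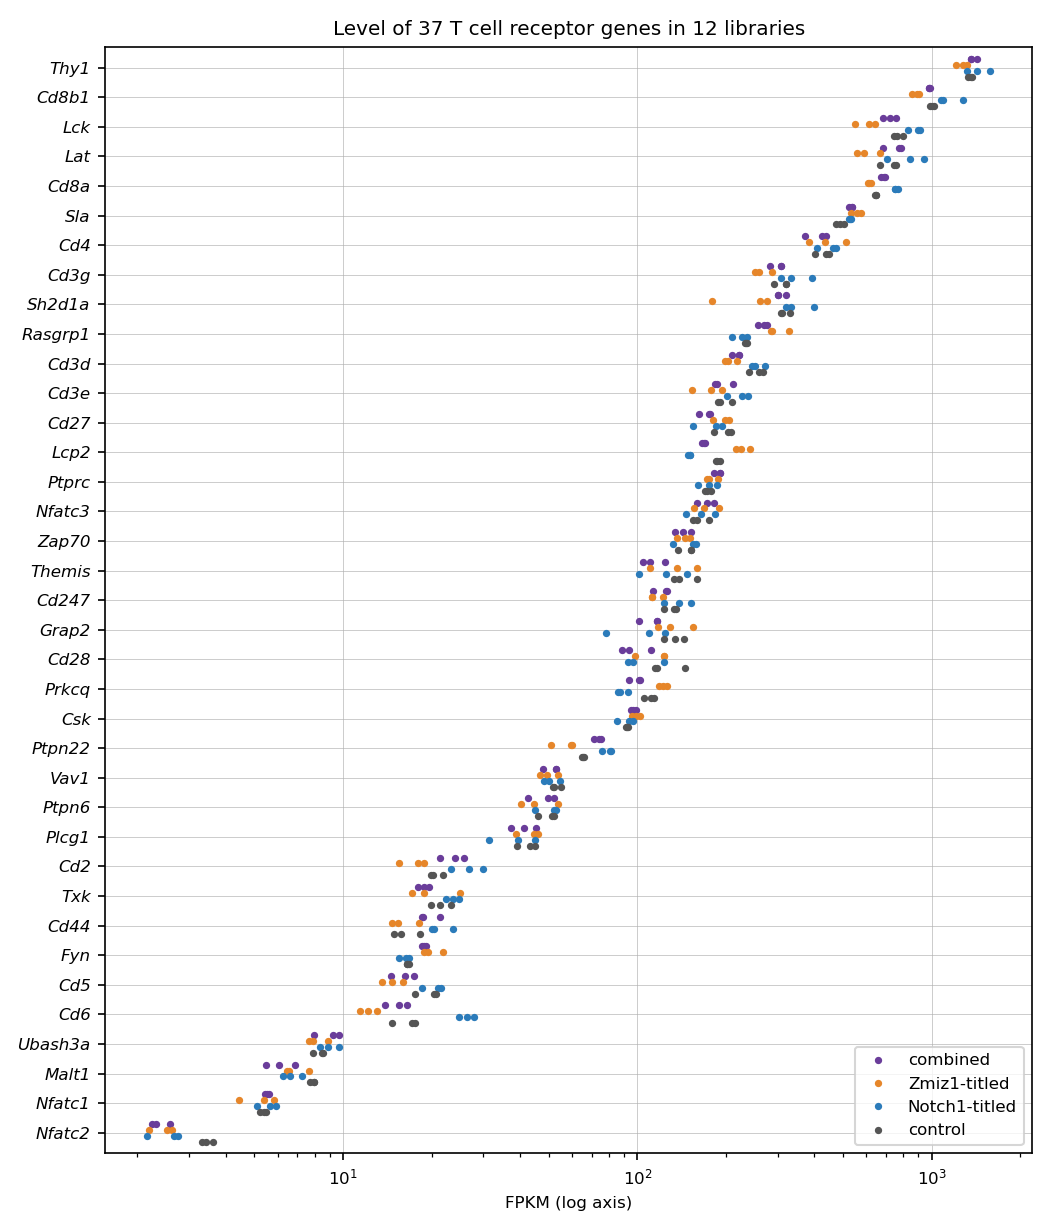
Level of each of the 37 members with a mean of at least 1 FPKM in each of the 12 libraries (FPKM, log axis), with genes ordered by their mean and 1 point per library, coloured by group. Levels run from Nfatc2 near 2.70 FPKM to Thy1 near 1363 FPKM, and the spread between genes is far wider than the spread between groups of any gene.

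Promoter sequences from RefSeq (build GRCm38.p6, which is mm10) cover 27 of the 38 members in 37 windows, each from 250 bases before to 50 bases after a start site. The windows below belong to 6 called members with the largest falls (Lck, Ptpn22, Lat) and rises (Lcp2, Prkcq, Rasgrp1) in Zmiz1-titled against Notch1-titled libraries among those with a window, and are shown so that the start regions of genes that moved in opposite directions can be set side by side. Capitals mark matches, on either strand, to TGGGAA (the core bound by RBPJ, the DNA-binding partner of Notch), AGGAAG (ETS factors), TGTGGT (RUNX factors) and CAGCTG (E proteins). No matches overlapped in these windows. Lck is known to have a distal and a proximal promoter, and its windows are given in that order. Their starts lie 15269 bases apart, at chr4:129573592-129573891 and chr4:129558323-129558622, both on the minus strand. The Ptpn22 windows are at chr3:103859545-103859844 and chr3:103860027-103860326 on the plus strand, and the Lat window is at chr7:126369519-126369818 on the minus strand. Those of the genes that rose are at chr11:34046678-34046977 on the plus strand (Lcp2), chr2:11172132-11172431 on the plus strand (Prkcq) and chr2:117342828-117343127 on the minus strand (Rasgrp1).
Lck distal: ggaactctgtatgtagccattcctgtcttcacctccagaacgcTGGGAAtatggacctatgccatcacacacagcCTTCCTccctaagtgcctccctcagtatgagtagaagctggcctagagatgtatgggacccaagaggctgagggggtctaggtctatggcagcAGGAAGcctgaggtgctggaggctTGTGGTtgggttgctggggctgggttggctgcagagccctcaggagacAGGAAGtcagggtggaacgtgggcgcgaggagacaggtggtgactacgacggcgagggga
Lck proximal: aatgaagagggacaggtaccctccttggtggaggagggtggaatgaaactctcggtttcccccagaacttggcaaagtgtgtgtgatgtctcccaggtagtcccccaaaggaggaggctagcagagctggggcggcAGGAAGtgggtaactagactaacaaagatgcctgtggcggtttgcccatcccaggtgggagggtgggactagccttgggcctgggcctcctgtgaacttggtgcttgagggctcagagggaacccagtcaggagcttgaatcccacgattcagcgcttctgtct
Ptpn22 first: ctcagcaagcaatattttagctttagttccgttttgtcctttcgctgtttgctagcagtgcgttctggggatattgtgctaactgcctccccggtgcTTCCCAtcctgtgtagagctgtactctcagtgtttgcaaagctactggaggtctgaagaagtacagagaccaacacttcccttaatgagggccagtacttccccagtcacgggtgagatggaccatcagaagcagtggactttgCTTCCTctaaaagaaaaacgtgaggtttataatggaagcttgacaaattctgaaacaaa
Ptpn22 second: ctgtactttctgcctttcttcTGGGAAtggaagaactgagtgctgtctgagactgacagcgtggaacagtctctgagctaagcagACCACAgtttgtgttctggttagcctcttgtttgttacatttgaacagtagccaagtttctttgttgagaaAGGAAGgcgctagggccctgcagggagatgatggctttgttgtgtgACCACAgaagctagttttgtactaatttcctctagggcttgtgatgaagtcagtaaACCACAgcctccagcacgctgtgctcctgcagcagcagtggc
Lat: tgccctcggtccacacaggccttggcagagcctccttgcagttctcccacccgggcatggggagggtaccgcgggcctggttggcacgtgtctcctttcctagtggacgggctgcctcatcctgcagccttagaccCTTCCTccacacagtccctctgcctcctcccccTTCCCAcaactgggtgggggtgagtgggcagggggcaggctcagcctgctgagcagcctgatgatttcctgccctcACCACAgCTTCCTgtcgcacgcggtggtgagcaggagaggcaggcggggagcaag
Lcp2: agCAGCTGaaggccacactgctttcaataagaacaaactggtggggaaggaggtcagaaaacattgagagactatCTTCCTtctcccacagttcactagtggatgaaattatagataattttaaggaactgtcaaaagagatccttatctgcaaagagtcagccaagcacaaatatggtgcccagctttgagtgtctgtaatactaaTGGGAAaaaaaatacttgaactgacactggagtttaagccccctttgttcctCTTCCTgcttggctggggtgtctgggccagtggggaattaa
Prkcq: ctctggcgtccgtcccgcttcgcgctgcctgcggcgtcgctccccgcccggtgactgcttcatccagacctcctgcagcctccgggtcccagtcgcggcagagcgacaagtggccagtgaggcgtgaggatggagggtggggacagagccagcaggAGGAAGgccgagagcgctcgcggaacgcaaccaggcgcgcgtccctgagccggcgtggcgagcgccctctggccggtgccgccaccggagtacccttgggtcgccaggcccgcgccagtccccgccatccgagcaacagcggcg
Rasgrp1: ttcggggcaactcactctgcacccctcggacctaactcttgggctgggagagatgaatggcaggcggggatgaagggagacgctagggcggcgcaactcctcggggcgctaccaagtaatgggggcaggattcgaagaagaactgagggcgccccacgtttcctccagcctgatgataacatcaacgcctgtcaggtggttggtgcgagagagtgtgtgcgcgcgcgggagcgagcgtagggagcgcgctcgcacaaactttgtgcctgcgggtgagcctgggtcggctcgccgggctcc

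The distal Lck window held 1 RBPJ, 3 ETS and 1 RUNX match, and the proximal one 1 ETS match. The Lat window held 1 RBPJ, 2 ETS and 1 RUNX match, and that of Lcp2 1 RBPJ, 2 ETS and 1 E protein match. In Ptpn22 the first window held 1 RBPJ and 1 ETS match and the second 1 RBPJ, 1 ETS and 3 RUNX matches. Prkcq held 1 ETS match and Rasgrp1 none, so genes that fell and a gene that rose both held the RBPJ letters. Of the 37 member windows 24 (64.9%) held the ETS letters, against 35.4% of all 32851 windows, and 13 (35.1%) held the RBPJ letters, against 25.6%. RUNX letters stood in 5 (13.5%) against 16.8%, and E protein letters in 4 (10.8%) against 16.3%. These counts describe letters only. Cd3d and Cd3g, which are read in opposite directions, have starts 1355 bases apart on chromosome 9.

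The members differed most between the single-vector groups. In Zmiz1-titled against Notch1-titled libraries 17 of 37 members passed the test, 4 higher and 13 lower, while 10.9% of all tested genes passed it (4.36% higher, 6.56% lower). The test was limma's moderated test on log2(FPKM + 1), with Benjamini-Hochberg adjustment over the 10152 genes and a threshold of 0.05, and fold changes are on that scale. Of the 25 members with a mean of at least 50 FPKM 12 passed, against 13.5% of all genes at that level. The groups did not overlap for 19 of 37 members, against 23.5% of all genes. The median log2 fold change was -0.08 for the members and -0.03 for all genes. Receptor chains, coreceptors and surface proteins contributed 9 of the 13 that fell and none that rose. For all 17 genes the control mean and the combined mean lay between the means of the single-vector groups, as they did for 80.2% and 85.7% of the 1109 genes called in this comparison.

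**Figure D2:**
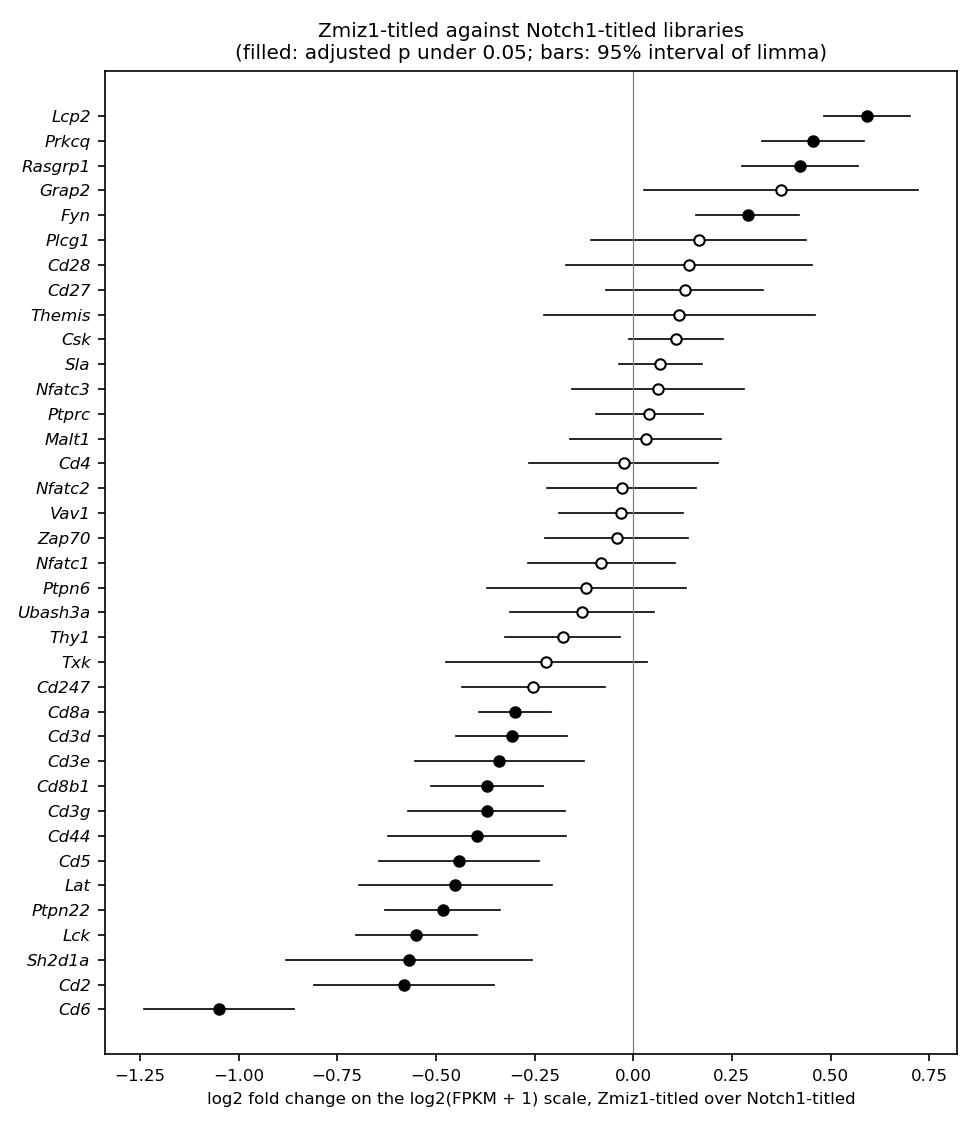
Log2 fold change of each of the 37 tested members in Zmiz1-titled over Notch1-titled libraries on the log2(FPKM + 1) scale, with bars for limma's 95% interval and filled points for an adjusted p under 0.05. Cd6 stands apart at -1.05, and Lcp2 has the largest rise at 0.59.

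Of the 4 receptor chains 3 fell in Zmiz1-titled against Notch1-titled libraries. Cd3d, Cd3e and Cd3g encode the CD3 delta, epsilon and gamma chains, which pair around the antigen-binding chains. Cd3d was at 218, 199 and 204 FPKM in Zmiz1-titled libraries and 250.4, 246 and 272 FPKM in Notch1-titled libraries (log2 fold change -0.31 with an SE of 0.0635, adjusted p = 0.0107). The groups did not overlap. Cd3g was at 258, 250.4 and 286 FPKM in Zmiz1-titled and 308, 333 and 392 FPKM in Notch1-titled libraries (log2 fold change -0.37 with an SE of 0.0898, adjusted p = 0.0237). Cd3e was at 195, 154 and 178 FPKM in Zmiz1-titled and 226, 202 and 238 FPKM in Notch1-titled libraries (log2 fold change -0.34 with an SE of 0.0971, adjusted p = 0.0492). Neither Cd3g nor Cd3e overlapped between these groups, and for both genes the highest library was Notch1-titled replicate 3. Cd247, the zeta chain with the most phosphorylation motifs, was at 112, 112 and 123 FPKM in Zmiz1-titled and 124, 138 and 153 FPKM in Notch1-titled libraries and did not pass (log2 fold change -0.25 with an SE of 0.0819, adjusted p = 0.0769). Its exons overlap those of Pou2f1 on the other strand by 3007 bases, and the kit keeps no strand, so its level may hold reads of that gene. With a term for the replicate sets in the model, chosen after seeing the data, Cd247 passed (adjusted p = 0.0116).

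Of the remaining groups, the combined libraries held Cd3d at 222, 222 and 209.8 FPKM and the controls at 259, 268 and 239.8 FPKM, a pair of groups that did not overlap (log2 fold change -0.23 with an SE of 0.0635, adjusted p = 0.0630). Cd3e was at 211, 187 and 183 FPKM in combined and 209.96, 191 and 188 FPKM in control libraries. Cd3g was at 283, 307 and 308 FPKM in combined and 292, 319.5 and 321 FPKM in control libraries, and Cd247 at 113, 125 and 126 FPKM in combined and 123, 135 and 133 FPKM in control libraries. For Cd3e, Cd3g and Cd247 the combined and control groups overlapped. The summed FPKM of the 4 chains was 829, 841 and 828 in combined libraries, 783, 715 and 790.1 in Zmiz1-titled libraries, 908, 919 and 1054 in Notch1-titled libraries and 885, 914 and 882 in controls. Every Zmiz1-titled sum was under every sum of the other groups.

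The chain calls leaned on single libraries. Without Notch1-titled replicate 3 the difference was -0.27, adjusted p = 0.0575 for Cd3g and -0.29, adjusted p = 0.151 for Cd3e, and without Zmiz1-titled replicate 2 it was -0.33, adjusted p = 0.0686 for Cd3g and -0.25, adjusted p = 0.129 for Cd3e. Cd3g also missed the threshold without Zmiz1-titled replicate 1. Cd3e missed it without 10 of the 12 libraries, all but Zmiz1-titled replicate 1 and Notch1-titled replicate 2 (adjusted p 0.0525 to 0.151). Cd3d passed without any 1 library. With the trend on exonic length removed, the differences were -0.23, adjusted p = 0.0135 for Cd3d, -0.33, adjusted p = 0.0445 for Cd3e and -0.33, adjusted p = 0.0188 for Cd3g. The 13 members that fell had a median exonic length of 3637 bases, the 4 that rose 5030 bases and the 37 tested 5329 bases, while fold changes in this comparison correlated with length across all genes at 0.34 (Spearman). All 17 calls remained with that trend removed.

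Of the coreceptors, both CD8 genes were lower in Zmiz1-titled libraries and Cd4 did not pass. Cd8a was at 611, 610.4 and 624 FPKM in Zmiz1-titled libraries, the lowest group, and at 754, 750.2 and 767 FPKM in Notch1-titled libraries, the highest (log2 fold change -0.30 with an SE of 0.0412, adjusted p = 0.00100). The combined libraries had 671, 697 and 691 FPKM and the controls 644, 647 and 649.7 FPKM, and no pair of the 4 groups overlapped. For Cd8b1 the values were 908, 857 and 894 FPKM in Zmiz1-titled and 1091, 1079 and 1278 FPKM in Notch1-titled libraries (log2 fold change -0.37 with an SE of 0.0645, adjusted p = 0.00433), with Notch1-titled replicate 3 far above its group. In combined libraries Cd8b1 was at 978, 979.8 and 989 FPKM and in controls at 990.2, 1019 and 1006 FPKM, between the single-vector groups. Without Notch1-titled replicate 3 the Cd8b1 difference was -0.29, adjusted p = 0.00168. Cd4 was at 372, 426 and 439 FPKM in combined, 382, 513 and 434 FPKM in Zmiz1-titled, 409, 474 and 462 FPKM in Notch1-titled and 403, 439 and 447 FPKM in control libraries. Its groups all overlapped, and the log2 difference of Zmiz1-titled over Notch1-titled libraries was -0.02, with a 95% interval of -0.26 to 0.21.

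Among the surface proteins 4 of 8 tested members fell and none rose, led by Cd6, a scavenger receptor family protein that binds ALCAM and sets the strength of receptor signaling. Cd6 (chr19:10789341-10830058) had the largest difference of any member. It was at 11.4, 12.2 and 13.1 FPKM in Zmiz1-titled libraries and 24.8, 27.9 and 26.4 FPKM in Notch1-titled libraries (log2 fold change -1.05 with an SE of 0.0859, adjusted p = 2.52e-05), and at 13.9, 15.5 and 16.4 FPKM in combined and 14.6, 17.2 and 17.5 FPKM in control libraries. Notch1-titled libraries were all above, and Zmiz1-titled libraries all below, every library of the other groups, while the combined and control groups overlapped. The difference was -1.05 in replicate 1 and -1.05 in replicates 2 and 3. Cd2, which binds CD48 on other cells and helps adhesion, was at 18.0, 15.5 and 18.8 FPKM in Zmiz1-titled and 23.2, 26.7 and 29.8 FPKM in Notch1-titled libraries (log2 fold change -0.58 with an SE of 0.103, adjusted p = 0.00484). In combined libraries Cd2 was at 21.4, 25.7 and 24.0 FPKM and in controls at 19.9, 21.9 and 20.2 FPKM, and Zmiz1-titled libraries lay below all others. Within the replicate sets its difference was -0.35 in replicate 1 and -0.70 in replicates 2 and 3.

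Cd5, which restrains receptor signaling in thymocytes, averaged 14.7 ± 1.18 FPKM in Zmiz1-titled and 20.4 ± 1.57 FPKM in Notch1-titled libraries (SD, n = 3 each), and the groups did not overlap (log2 fold change -0.44 with an SE of 0.0918, adjusted p = 0.0113). Cd44, a hyaluronan receptor that marks early progenitors and activated cells, averaged 16.0 ± 1.80 FPKM in Zmiz1-titled and 21.4 ± 2.01 FPKM in Notch1-titled libraries, which did not overlap (log2 fold change -0.40 with an SE of 0.102, adjusted p = 0.0321). The Cd44 call was lost without control replicate 2, Zmiz1-titled replicate 2 or 3, or Notch1-titled replicate 1 or 3 (adjusted p 0.0512 to 0.0888). The costimulatory receptors Cd27 and Cd28, the phosphatase Ptprc (CD45) and Thy1 did not pass in this comparison, at 0.13, 0.14, 0.04 and -0.18 on the log2 scale. Cd28 lay between 89.0 and 145 FPKM in the 12 libraries, and in each group its highest or second highest value was in replicate 1. Cd69, tested in the fit without a filter, was at 0.297, 0.160 and 0.108 FPKM in combined, 0.236, 0.135 and 0.188 FPKM in Zmiz1-titled, 0.0191, 0.0762 and 0.0743 FPKM in Notch1-titled and 0, 0.205 and 0.0212 FPKM in control libraries and passed in no comparison.

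The kinases split by gene. Lck (chr4:129548344-129573641) was at 614, 551 and 644 FPKM in Zmiz1-titled and 834, 912 and 899 FPKM in Notch1-titled libraries (log2 fold change -0.55 with an SE of 0.0694, adjusted p = 5.61e-04), with 684, 757 and 725 FPKM in combined and 746, 801 and 762 FPKM in control libraries. The Zmiz1-titled libraries were below all others and the Notch1-titled libraries above all others. Within the replicate sets the Lck difference was -0.44 in replicate 1 and -0.60 in replicates 2 and 3. Prkcq (protein kinase C theta, which links the receptor to NF-kB) went the other way, at 118, 126 and 122 FPKM in Zmiz1-titled and 86.2, 93.0 and 87.3 FPKM in Notch1-titled libraries (log2 fold change 0.46 with an SE of 0.0583, adjusted p = 6.07e-04). In combined libraries Prkcq was at 93.4, 101 and 102 FPKM and in controls at 105, 112 and 114 FPKM, and Zmiz1-titled libraries lay above all others. Fyn, the Src family kinase that acts beside Lck, averaged 20.1 ± 1.62 FPKM in Zmiz1-titled and 16.2 ± 0.613 FPKM in Notch1-titled libraries and rose, with a log2 fold change of 0.29 with an SE of 0.0592, adjusted p = 0.0102. Zap70 was at 134, 153 and 142 FPKM in combined, 136, 145 and 151 FPKM in Zmiz1-titled, 132, 158 and 155 FPKM in Notch1-titled and 138, 152 and 152 FPKM in control libraries. All its groups overlapped, and its difference of -0.04 between the single-vector groups had a 95% interval of -0.22 to 0.14. Txk, a Tec family kinase, and Csk, which inhibits Lck, did not pass either, at log2 fold changes of -0.22 and 0.11.

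Among the 10 adapters, exchange factors and the lipase, 2 rose and 2 fell in Zmiz1-titled libraries. Lcp2 (SLP-76, chr11:34046920-34092295), the scaffold that holds Vav1 and phospholipase C gamma at Lat, was at 224, 241 and 217 FPKM in Zmiz1-titled and 151, 149 and 151 FPKM in Notch1-titled libraries (log2 fold change 0.59 with an SE of 0.0493, adjusted p = 2.88e-05). Combined libraries held Lcp2 at 169.8, 165 and 169 FPKM and controls at 192, 187 and 185 FPKM, so that no pair of the 4 groups overlapped. Its partner scaffold Lat, which anchors the same complex at the membrane, ran the other way, at 589, 559.9 and 668 FPKM in Zmiz1-titled and 705, 846 and 945 FPKM in Notch1-titled libraries (log2 fold change -0.45 with an SE of 0.111, adjusted p = 0.0255). The Lat call was lost without Zmiz1-titled replicate 1 or 2 or Notch1-titled replicate 2 or 3 (adjusted p 0.0677 to 0.0832). Rasgrp1, the exchange factor that activates Ras in thymocytes, averaged 301 ± 24.3 FPKM in Zmiz1-titled and 224 ± 12.8 FPKM in Notch1-titled libraries, which did not overlap (log2 fold change 0.42 with an SE of 0.0663, adjusted p = 0.00238). Sh2d1a (SAP, an adapter of SLAM receptors) was at 275, 179 and 261 FPKM in Zmiz1-titled and 332, 320.3 and 398 FPKM in Notch1-titled libraries (log2 fold change -0.57 with an SE of 0.141, adjusted p = 0.0269). Its lowest value was Zmiz1-titled replicate 2 and its highest Notch1-titled replicate 3, and its difference was -0.27 in replicate 1 and -0.72 in replicates 2 and 3. Without Notch1-titled replicate 3 it was -0.47, adjusted p = 0.0999, and without Zmiz1-titled replicate 2 it was -0.38, adjusted p = 0.0259. The exons of Sh2d1a overlap those of Tenm1 on the other strand by 1465 bases, but Tenm1, unlike Pou2f1, was not among the genes tested.

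Grap2 (Gads, which bridges Lat and SLP-76), Themis, Vav1, Plcg1, Sla and Malt1 did not pass in this comparison, with log2 fold changes of 0.37, 0.12, -0.03, 0.17, 0.07 and 0.03. Grap2 was widest in Notch1-titled libraries, at 109.8, 125 and 78.0 FPKM, with replicate 3 the lowest. No NFAT gene passed. Of the 3 negative regulators, Ptpn22, a phosphatase that acts on Lck and Zap70, averaged 56.7 ± 5.19 FPKM in Zmiz1-titled and 79.5 ± 2.94 FPKM in Notch1-titled libraries (log2 fold change -0.48 with an SE of 0.0663, adjusted p = 9.84e-04), again without overlap. Ptpn6 (SHP-1) and Ubash3a, which also restrain the receptor, did not pass, at log2 fold changes of -0.12 and -0.13.

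**Figure D3:**
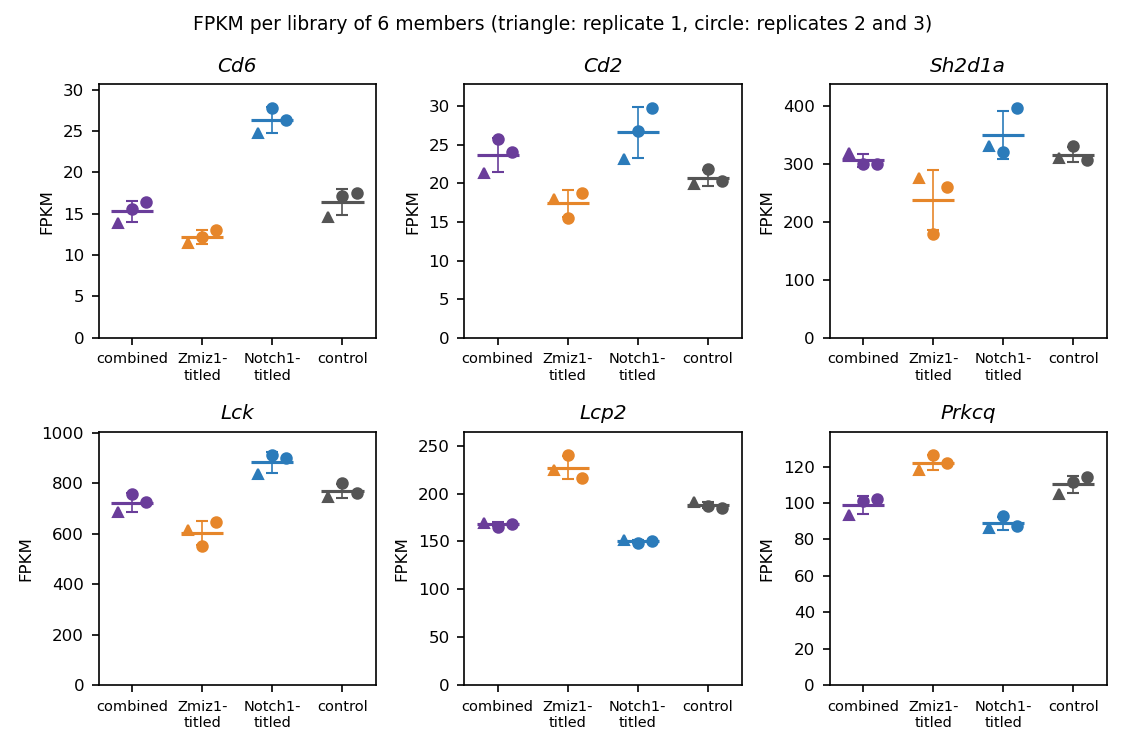
FPKM of Cd6, Cd2, Sh2d1a, Lck, Lcp2 and Prkcq in each library by group, with triangles for replicate 1, circles for replicates 2 and 3, a horizontal line at the group mean and bars for the SD (n = 3). Cd6, Cd2, Sh2d1a and Lck have their lowest and Lcp2 and Prkcq their highest mean in Zmiz1-titled libraries, and Notch1-titled libraries have the opposite extreme mean in all 6 genes.

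Set against the controls, the Notch1-titled group changed 6 of 37 members, 3 higher and 3 lower, while 5.49% of all genes were called (3.19% higher, 2.3% lower). At 50 FPKM or more 4 of 25 members were called, against 8.36% of all genes, and the groups did not overlap for 12 of 37 members, against 26.1%. Cd6 rose with a log2 fold change of 0.65 with an SE of 0.0859, adjusted p = 0.00133, the difference being 0.72 in replicate 1 and 0.62 in replicates 2 and 3. Cd8a (log2 fold change 0.23 with an SE of 0.0412, adjusted p = 0.00918) and Ptpn22 (log2 fold change 0.28 with an SE of 0.0663, adjusted p = 0.0383) rose too. Lcp2 fell to 150.3 ± 1.45 FPKM in Notch1-titled libraries, against 188 ± 3.26 FPKM in controls (log2 fold change -0.32 with an SE of 0.0493, adjusted p = 0.00324). Prkcq fell (log2 fold change -0.31 with an SE of 0.0583, adjusted p = 0.0111), as did Nfatc2, an NFAT factor that calcium brings to the nucleus, which averaged 2.53 ± 0.318 FPKM in Notch1-titled and 3.45 ± 0.143 FPKM in control libraries (log2 fold change -0.34 with an SE of 0.0856, adjusted p = 0.0469). Calls for Cd6, Cd8a and Lcp2 passed without any 1 library. The Prkcq call was lost without control replicate 2 or 3 (adjusted p 0.0584 to 0.0635) and the Ptpn22 call without any of the control, Notch1-titled or combined libraries (0.0546 to 0.133). Nfatc2 held only when Zmiz1-titled replicate 2 was the library left out, and otherwise reached 0.0571 to 0.172.

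In Zmiz1-titled against control libraries 5 of 37 members were called, 2 higher and 3 lower, with 2.11% of all genes called (1.07% higher, 1.03% lower). At 50 FPKM or more the count was 4 of 25, against 1.54% of all genes. The groups did not overlap for 20 of 37 members, against 17.9%. Rasgrp1 rose to 301 ± 24.3 FPKM in Zmiz1-titled libraries, against 234 ± 1.55 FPKM in controls (log2 fold change 0.36 with an SE of 0.0663, adjusted p = 0.0209), and Lcp2 rose (log2 fold change 0.27 with an SE of 0.0493, adjusted p = 0.0190). Cd3d (log2 fold change -0.30 with an SE of 0.0635, adjusted p = 0.0366), Lck (log2 fold change -0.35 with an SE of 0.0694, adjusted p = 0.0274) and Cd6 (log2 fold change -0.40 with an SE of 0.0859, adjusted p = 0.0418) fell. All 5 of these differences had the same direction in replicate 1 and in replicates 2 and 3, for Lck -0.28 in replicate 1 and -0.39 in replicates 2 and 3. They were called on these same libraries together, so the shared direction is no separate support. Each of the 5 calls was lost without at least 1 library. Rasgrp1 was lost without any of the 3 controls (adjusted p 0.0721 to 0.101), and Lcp2 without any control or Zmiz1-titled replicate 1 (0.0526 to 0.110). Lck was lost without any control, Zmiz1-titled replicate 1 or 2, or combined replicate 3 (0.0537 to 0.139). Cd3d was lost without any control or combined library, Zmiz1-titled replicate 2 or 3, or Notch1-titled replicate 2 (0.0522 to 0.181). Cd6 was lost without 10 libraries, all but control replicate 1 and combined replicate 1 (0.0522 to 0.198). Cd5 (log2 fold change -0.38 with an SE of 0.0918, adjusted p = 0.0665), Fyn (log2 fold change 0.26 with an SE of 0.0592, adjusted p = 0.0557) and Sh2d1a (log2 fold change -0.43 with an SE of 0.141, adjusted p = 0.199) did not pass. With a term for the replicate sets in the model, Cd5 (adjusted p = 0.0141) and Fyn (adjusted p = 0.0361) passed, and 9 members were called, with 4.02% of all genes called.

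With both genes supplied, 1 of 37 members was called against control. In combined against control libraries Nfatc2 was at 2.24, 2.32 and 2.58 FPKM in combined libraries and 3.41, 3.60 and 3.33 FPKM in controls (log2 fold change -0.40 with an SE of 0.0856, adjusted p = 0.0199), without overlap, while 6.46% of all genes were called. No member of 50 FPKM or more was called, against 7.56% of all genes at that level, although the groups did not overlap for 20 of 37 members, against 33.6% of all genes. At an unadjusted p under 0.05 there were 14 members, but the share of all genes at that level is not given here. Nfatc2 was lost without any control or without combined replicate 1 or 2 (adjusted p 0.0604 to 0.0928). The count itself moved with the model: 9 members were called with a term for the replicate sets in the model, where 12.2% of all genes were called. Without Zmiz1-titled replicate 2 it was 7, with 10.6% of all genes called. Nearest to the threshold were Malt1 (log2 fold change -0.32 with an SE of 0.0862, adjusted p = 0.0518) and Cd3d, and both passed with that term (adjusted p = 0.0316 for Malt1 and 0.0357 for Cd3d). In Nfatc2 the other groups were close to the combined one, at 2.52, 2.20 and 2.63 FPKM in Zmiz1-titled libraries and 2.66, 2.76 and 2.16 FPKM in Notch1-titled libraries, and every control library lay above all 9 others.

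Adding the Notch1 vector to Zmiz1 (combined against Zmiz1-titled) changed 4 of 37 members, 2 higher and 2 lower, with 3.86% of all genes called (2.67% higher, 1.19% lower). At 50 FPKM or more the count was 3 of 25, against 4.98%, and the groups did not overlap for 15 of 37 members, against 21.0%. Zmiz1 itself was lower in combined than in Zmiz1-titled libraries (log2 fold change -0.51 with an SE of 0.0528, adjusted p = 3.12e-04). The comparison thus does not hold the Zmiz1 level equal, and the part of this in the results was not tested. Lcp2 fell to 168 ± 2.27 FPKM in combined libraries, against 227 ± 12.2 FPKM in Zmiz1-titled libraries (log2 fold change -0.43 with an SE of 0.0493, adjusted p = 5.77e-04), and Prkcq fell (log2 fold change -0.30 with an SE of 0.0583, adjusted p = 0.0162). Ptpn22 (log2 fold change 0.37 with an SE of 0.0663, adjusted p = 0.0108) and Cd2 (log2 fold change 0.43 with an SE of 0.103, adjusted p = 0.0477) rose. Lcp2 passed without any 1 library. Prkcq was lost without combined replicate 1 or 2 (adjusted p 0.0564 to 0.0693), Ptpn22 without combined replicate 2 or 3 (0.0558 to 0.0610) and Cd2 without 10 libraries, all but Notch1-titled replicates 1 and 3 (0.0517 to 0.207). Lck, at 0.26 ± 0.0694 (SE), adjusted p = 0.0703, and Cd8a, at 0.16 ± 0.0412 (SE), adjusted p = 0.0653, did not pass, but both passed with the term for the replicate sets (adjusted p = 0.0371 for Lck and 0.0210 for Cd8a) and with the length trend removed (0.0490 for Lck and 0.0417 for Cd8a), alternatives likewise chosen after seeing the data.

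Adding the Zmiz1 vector to Notch1 (combined against Notch1-titled) changed 1 member of 37, with 1.51% of all genes called. Cd6 fell to 15.3 ± 1.28 FPKM in combined libraries, against 26.3 ± 1.55 FPKM in Notch1-titled libraries (log2 fold change -0.75 with an SE of 0.0859, adjusted p = 0.00117), and passed without any 1 library. Its difference was -0.79 in replicate 1 and -0.73 in replicates 2 and 3. No member of 50 FPKM or more was called, against 1.69% of all genes, and the groups did not overlap for 13 of 37 members, against 15.4%. At an unadjusted p under 0.05 there were 12 members, again without the share of all genes beside them. Lck came nearest (log2 fold change -0.29 with an SE of 0.0694, adjusted p = 0.0864), and it passed with the term for the replicate sets (adjusted p = 0.0452) and with the length trend removed (adjusted p = 0.0416). Without Zmiz1-titled replicate 2 the count was 5, with 2.98% of all genes called.

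Whether one vector changed the effect of the other was asked by the interaction term (combined minus Zmiz1-titled minus Notch1-titled plus control). Zmiz1 itself had a called interaction (-0.56 with an SE of 0.0747, adjusted p = 0.0266), so the term compares unequal levels of Zmiz1. No member passed in limma, while 0.069% of all genes did. An unadjusted p under 0.05 was reached by 3 members, and the share of all genes at that level is not given here. The 3 members were Cd6 at -0.35, the adapter Sla at -0.17 and Nfatc2 at 0.31, each with an adjusted p of 0.999. The Nfatc2 value goes with single-vector and combined groups that all lay below the controls. Over the 37 members the median interaction was 0.02, against 0.00 for all genes, and the 95% intervals of single members reached from -0.62 to 0.69.

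**Figure D4:**
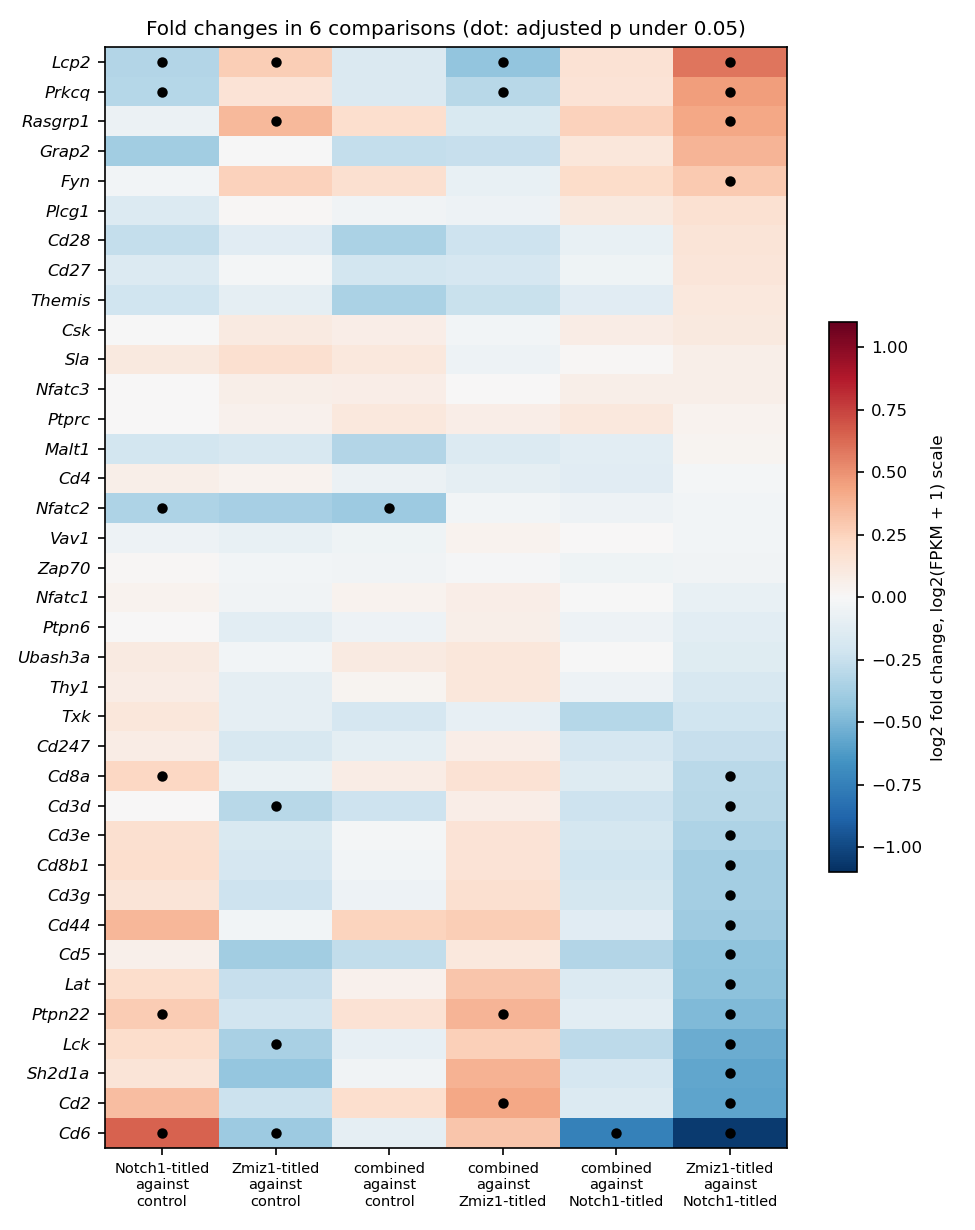
Log2 fold changes of the 37 tested members in the 6 pairwise comparisons, on the log2(FPKM + 1) scale, with red for higher and blue for lower in the group named first and a dot for an adjusted p under 0.05. Dots number 17 in Zmiz1-titled against Notch1-titled and 1 in both combined against control and combined against Notch1-titled, and comparisons that use the same libraries are not independent.

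Of the 37 members tested in the main fit, 18 passed in at least 1 of the 6 comparisons, giving 34 called differences. The share of all genes passing in at least 1 comparison is not given here, so the count of 18 has no background beside it. All 34 had the same sign in replicate 1 and in replicates 2 and 3, but they were called on these same libraries together. Agreement in sign is therefore no separate support. Of the 34, 17 passed without any 1 library, 12 of them in Zmiz1-titled against Notch1-titled libraries.

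Further genes of receptor signaling were read from a list of 42, of which 39 were tested. Of these, 4 were called in Zmiz1-titled against Notch1-titled libraries, 2 higher and 2 lower, a share close to the 10.9% of all genes called in this comparison, and the median log2 fold change was 0.08 against -0.03 for all genes. Prkd2, a protein kinase D that acts below diacylglycerol, rose (log2 fold change 0.45 with an SE of 0.0681, adjusted p = 0.00185), as did the adapter Nck2 (log2 fold change 0.36 with an SE of 0.0727, adjusted p = 0.0102). Pag1, which holds Csk at the membrane, fell (log2 fold change -0.50 with an SE of 0.0964, adjusted p = 0.00788), and so did the kinase Tec (log2 fold change -0.37 with an SE of 0.0603, adjusted p = 0.00291). Against control, of these 39 genes 2 rose and 4 fell in combined libraries, with 6.46% of all genes called. None rose and 2 fell in Zmiz1-titled libraries, with 2.11% of all genes called, and 1 rose and 4 fell in Notch1-titled libraries, with 5.49% called. Ppp3ca, a catalytic subunit of calcineurin, fell in all 3, to 10.2 ± 0.522 FPKM in combined, 10.4 ± 0.879 FPKM in Zmiz1-titled and 10.5 ± 0.321 FPKM in Notch1-titled libraries, against 13.4 ± 0.499 FPKM in controls. Calcineurin is the phosphatase that releases NFAT, and the controls lay above all other libraries for Ppp3ca as for Nfatc2. Pag1 was at 18.7, 16.6 and 18.4 FPKM in combined, 12.1, 11.1 and 11.0 FPKM in Zmiz1-titled, 18.5, 17.7 and 13.8 FPKM in Notch1-titled and 11.6, 11.4 and 11.0 FPKM in control libraries, high in both groups that received the Notch1 vector. Tec was at 6.64, 6.27 and 6.81 FPKM in combined, 6.91, 7.02 and 6.85 FPKM in Zmiz1-titled, 9.44, 8.59 and 9.77 FPKM in Notch1-titled and 10.6, 9.65 and 10.3 FPKM in control libraries, low in both groups that received Zmiz1.

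Genes that receptor signals induce were mostly low. Of 15 such genes 4 were tested, and Il2, Ifng and Egr3 were at 0 in every library. Egr1 lay between 0.477 and 1.27 FPKM and Nr4a1, an early reporter of receptor signals in mice, between 0.381 and 0.701 FPKM. Junb was higher, between 18.7 and 23.5 FPKM in all libraries, and Nfkbid lay between 3.34 and 5.99 FPKM. In Zmiz1-titled against Notch1-titled libraries, where 6.56% of all genes were called lower, 2 of the 4 fell, Irf4 (log2 fold change -0.60 with an SE of 0.113, adjusted p = 0.00640) and Rcan1 (log2 fold change -0.30 with an SE of 0.0640, adjusted p = 0.0130). Irf4, whose level follows the strength of receptor signals in T cells, was at 1.93, 2.11 and 1.99 FPKM in combined, 1.71, 2.51 and 1.45 FPKM in Zmiz1-titled, 3.48, 3.39 and 3.16 FPKM in Notch1-titled and 2.13, 2.09 and 2.14 FPKM in control libraries. The Notch1-titled libraries lay above all others. Rcan1 was at 4.04 to 4.30 FPKM in combined, 3.16 to 3.61 in Zmiz1-titled, 4.25 to 4.58 in Notch1-titled and 3.28 to 3.64 in control libraries. Against control, both Irf4 (log2 fold change 0.48, adjusted p = 0.0361) and Rcan1 (0.28, adjusted p = 0.0292) rose in Notch1-titled libraries, with 3.19% of all genes called higher. None of the 4 was called in Zmiz1-titled or combined libraries, with 2.11% and 6.46% of all genes called.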

How the data were processed

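RNA of sorted cells was made into libraries with the TruSeq mRNA v2 kit, per the labels' protocols, a kit that does not mark strand. Each deposited file gives FPKM by gene symbol for 1 library, per the file headers. Per the submitters' processing notes, the build was mm10 and the tools, named without their roles or order, were Cuffdiff 2.1.1, Cufflinks, Bowtie2 2.1.0.0, TopHat2 2.0.9 and FastQC 0.10.0. The annotation and any scaling between libraries are not given in the sources used here. Counts and read totals were not analysed here, so no counting interval is given.

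Values entered the tests as log2(FPKM + 1), and genes whose mean over the 12 libraries was under 1 FPKM were left out, which kept 10152. A fold change on this scale understates the change of low genes. All 12 libraries were fitted together in limma (3.58.1, R 4.3.3) with 1 mean per group and variances moderated along the expression trend. The 6 pairwise contrasts and the interaction were two-sided tests, adjusted by Benjamini-Hochberg over the 10152 genes and called at 0.05. "Rose", "fell" and "called" refer to it. With 3 libraries against 3, the smallest exact permutation p is 0.1, so calls rest on the variance limma shares across genes. The member below the filter was tested in a fit without it. Positions and exonic lengths are from GENCODE M21 on GRCm38 (mm10), where all 38 members were found by symbol, and promoters from RefSeq (GRCm38.p6). Of the list of 42 further signaling genes 41 matched a symbol.

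Members, gene lists and the rule for genes with values in every library were chosen with earlier results of these data known. The rule took receptor chains, coreceptors, Lck, Zap70 and members called with a log2 fold change of at least 0.5 in size; values of other genes were added after they had been seen. Alternatives were other pseudocounts, filters, scalings and variance priors, a replicate block, only the groups compared, and each library left out. Chosen after seeing the data were the term for the replicate sets, replicates 2 and 3 only, and removal of the trend on exonic length. Plots used matplotlib 3.10.9 in Python 3.11.15.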

Additional observations from a re-analysis of the deposited data

How the results depend on the processing

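Of the 34 called member differences none changed sign under any alternative. Calls kept were 33 with a pseudocount of 0.1, 30 with no filter, 30 of 32 with a filter at a mean of 5 FPKM, 31 with median ratio scaling, 27 with quantile normalization, 34 with robust variances and 11 with only the groups compared. Of the alternatives chosen after seeing the data, the term for the replicate sets kept 34, replicates 2 and 3 only 14, and the removed length trend 33. Kept under every alternative were Cd6 in Notch1-titled against control and in combined against Notch1-titled, Lcp2 in combined against Zmiz1-titled, and Cd6, Lck, Prkcq, Lcp2 and Ptpn22 in Zmiz1-titled against Notch1-titled libraries.

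Counts of called members moved as follows, and the cause was not tested unless one is named. A percentage in brackets is the share of all genes called under that setting. Counts without one have no such share beside them. With only the groups compared, the count was 3 in Notch1-titled against control, 0 in Zmiz1-titled against control, 7 in combined against control, 1 in combined against Zmiz1-titled and 5 in Zmiz1-titled against Notch1-titled. With replicates 2 and 3 only it was 2 (1.74%) in Notch1-titled, 0 (0.266%) in Zmiz1-titled and 0 (1.85%) in combined libraries against control. The count there was 1 (1.12%) in combined against Zmiz1-titled and 11 (4.8%) in Zmiz1-titled against Notch1-titled. With the term for the replicate sets it was 9 (4.02%) in Zmiz1-titled against control and 9 (12.2%) in combined against control. The count with that term was 9 (7.28%) in combined against Zmiz1-titled and 3 (2.81%) in combined against Notch1-titled. In combined against control, it was 2 with a pseudocount of 0.1, and 0 with a filter at 5 FPKM, where Nfatc2 is not tested. It was 2 there with median ratio scaling, 5 with quantile normalization and 3 (7.91%) with the length trend removed. In combined against Notch1-titled it was 3 with quantile normalization and 3 (1.93%) with the length trend removed. In combined against Zmiz1-titled it was 6 (4.51%) with the length trend removed. The interaction count was 0 under all alternatives.

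Leaving out 1 library gave 3 to 7 called members in Notch1-titled against control, 0 to 6 in Zmiz1-titled against control (0 without control replicate 2 or 3), 0 to 7 in combined against control, 1 to 6 in combined against Zmiz1-titled, 1 to 5 in combined against Notch1-titled, 12 to 17 in Zmiz1-titled against Notch1-titled and 0 in the interaction. A group left with 2 libraries takes its spread from the shared model. The share of all genes called moved too. In combined against control it was 6.46% in the main fit and 10.6% without Zmiz1-titled replicate 2, where 7 members were called. Without that library it was 9.68% in Notch1-titled against control (7 members) and 2.98% in combined against Notch1-titled (5 members). Without Notch1-titled replicate 3 it was 2.37% in Zmiz1-titled against control and 4.96% in combined against Zmiz1-titled (6 members each). In Zmiz1-titled against Notch1-titled it was then 7.49% (12 members), against 10.9% in the main fit. Shares for the other ends of these ranges are not given here. The design does not state a pairing by replicate number, and the main test uses none. Deviations of same-numbered libraries correlated above 0.1 in 6 of 18 pairs (range -0.18 to 0.27). The highest value was between replicate 1 of combined and control libraries, and the lowest between replicate 3 of combined and Notch1-titled libraries. Of the 12 libraries, 8 correlated best with one of their own number. Replicate 1 is also a set of its own by the spacing of low FPKM values. For these libraries pairing and that set cannot be told apart. With the replicate block the counts were 7 in combined against control and 9 in combined against Zmiz1-titled, 7 in both single-vector groups against control, 1 in combined against Notch1-titled, 18 in Zmiz1-titled against Notch1-titled and 0 in the interaction. Shares of all genes under the block are not given here.

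Depth limits Cd69 and other genes near 0 FPKM, whose counting error is not known. With 3 libraries a group, a p that misses the threshold does not show that 2 groups were equal.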

Other observations

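Among 22 other costimulatory and checkpoint genes, 13 were tested, and 5 differed between Zmiz1-titled and Notch1-titled libraries, 2 higher and 3 lower, while 10.9% of all genes were called. Pdcd1, the inhibitory receptor PD-1, had the largest difference. It was at 2.09, 2.60 and 2.11 FPKM in combined, 3.34, 5.54 and 3.86 FPKM in Zmiz1-titled, 0.608, 0.844 and 0.716 FPKM in Notch1-titled and 1.38, 1.60 and 1.30 FPKM in control libraries, and no pair of groups overlapped. Its log2 fold change, on the log2(FPKM + 1) scale, was 1.59 with an SE of 0.139, adjusted p = 4.24e-05, in Zmiz1-titled over Notch1-titled libraries and 1.09 with an SE of 0.139, adjusted p = 0.00224, over controls. Cd53, a tetraspanin, had a log2 fold change of 0.91 with an SE of 0.167, adjusted p = 0.00584, in Zmiz1-titled over Notch1-titled libraries, but lay near 1 FPKM, with 1.21 to 1.88 FPKM in Zmiz1-titled and 0.344 to 0.447 FPKM in Notch1-titled libraries. Cd7, an immunoglobulin family protein of T and NK cells, was at 28.3, 29.3 and 28.9 FPKM in combined, 27.0, 20.4 and 29.2 FPKM in Zmiz1-titled, 36.2, 35.7 and 42.7 FPKM in Notch1-titled and 46.0, 48.4 and 45.2 FPKM in control libraries. It was lower in both groups with Zmiz1 than in either group without it, with a log2 fold change of -0.86 with an SE of 0.114, adjusted p = 0.00279, in Zmiz1-titled over control libraries. Cd52 and Slamf1 also fell in Zmiz1-titled against Notch1-titled libraries, by 0.63 and 0.27 on the log2 scale. Against control, of these 13 genes none rose and 3 fell in combined libraries, with 6.46% of all genes called. In Zmiz1-titled libraries 1 rose and 2 fell, with 2.11% of all genes called, and in Notch1-titled libraries none rose and 1 fell, with 5.49% called.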
